A study of Homo sapiens with 8 samples.

Results

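The cytosolic ribosome is built from proteins named RPL, of the large subunit, and RPS, of the small subunit, and this account follows their mRNAs in 2 human leukaemia lines. Genes were taken by symbol (RPL or RPS with a number and the usual endings A, X, L, AL or L1, together with RPLP0, RPLP1, RPLP2 and RPSA) where the mean level over the libraries was at least 1 CPM (read counts scaled to library size). Of 57992 genes in the count table, 85 had such a symbol and 83 passed. The 2 left out were RPL3L with 3 counts and RPL10L with 1 count over all libraries. The 83 comprised 46 large-subunit and 31 small-subunit core genes and 6 paralogs whose names end in L or L1, namely RPL7L1, RPL22L1, RPL26L1, RPL36AL, RPL39L and RPS27L. The symbols FAU and RACK1, which also encode ribosomal proteins, fall outside the naming pattern and are described beside the 83.

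Ribosomal proteins are needed in near-equal numbers, since each core protein enters the ribosome as a single copy apart from the stalk proteins. Their mRNAs carry a terminal oligopyrimidine (TOP) tract, a run of C and T letters that begins with C at the very first base. Translation of such mRNAs is raised by mTORC1 signalling and held back by the RNA-binding protein LARP1. The present measurements concern mRNA abundance, not translation or protein. Several core genes have a paralog expressed from another locus, and ribosomes in some tissues carry the paralog in place of the core protein.

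The study sequenced poly(A)-selected RNA of KG1A and U937, both given as acute myeloid leukaemia lines in the labels. KG1A is an immature CD34+ line and U937 a monocytic one. Cells were grown in RPMI with dialyzed serum and received either 10 mM dG, an abbreviation that the labels do not spell out, or PBS as vehicle, and the series title places the work in the balance of dNTP pools and the differentiation block of this leukaemia. There were 2 libraries in each of 4 groups: KG1A in dG, KG1A in PBS, U937 in dG and U937 in PBS. The labels give no duration, and they do not say whether replicates came from separate cultures.

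Libraries held 21053724 to 31135338 counts over genes. CD34 averaged 1190 CPM in KG1A in dG and 931 CPM in KG1A in PBS, against 0.561 CPM in U937 in dG and 0.265 CPM in U937 in PBS. CD4, a monocytic marker in this setting, averaged 441 and 265 CPM in U937 in dG and in PBS and stayed below 0.1 CPM in KG1A, whereas MPO was below 1 CPM in both lines. The haemoglobin genes HBB, HBA1, HBA2 and HBG1 had 0 counts in all 8 libraries. Summed lymphoid markers lay between 105 and 125 CPM in KG1A, carried mostly by CD3D, and between 5.24 and 8.13 CPM in U937. Levels are given as CPM from edgeR, and differences as log2 fold changes with standard errors (SE) and adjusted p (Benjamini-Hochberg over 18314 genes, edgeR quasi-likelihood F test, threshold 0.05).

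The annotated transcription starts show which members carry a TOP-like start, here a C at the first base followed by further C or T letters in an unbroken run of 5 or more. RefSeq (GRCh38.p14) held a promoter entry for 67 members. A TOP-like start was present at 46 of 62 core genes (74.2%) but at 1 of 5 paralogs, RPL22L1, and at 6.24% of 15860 protein-coding genes. Paralogs and parents whose values carry the results below are set side by side, with other members of the text after them. Each line gives 25 bases before the first base and 15 from it on, 5′ to 3′ on the gene's strand, and capitals mark the pyrimidine run at the first base where it was TOP-like.
RPL22L1 (chr3:170870181-170870220, minus strand): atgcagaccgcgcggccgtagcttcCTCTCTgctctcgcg
RPL22 (chr1:6199581-6199620, minus strand): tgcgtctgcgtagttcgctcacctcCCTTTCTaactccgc
RPS27L (chr15:63157463-63157502, minus strand): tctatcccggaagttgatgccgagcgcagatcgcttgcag
RPS27 (chr1:153990737-153990776, plus strand): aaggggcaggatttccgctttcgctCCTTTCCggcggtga
RPL26L1 (chr5:172958704-172958743, plus strand): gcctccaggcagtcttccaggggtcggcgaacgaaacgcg
RPL26 (chr17:8383179-8383218, minus strand): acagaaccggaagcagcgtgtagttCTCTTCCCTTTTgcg
RPL36AL (chr14:49620612-49620651, minus strand): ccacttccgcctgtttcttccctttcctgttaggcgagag
RPL36A (chrX:101390986-101391025, plus strand): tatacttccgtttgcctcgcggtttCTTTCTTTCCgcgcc
RPL39 (chrX:119791616-119791655, minus strand): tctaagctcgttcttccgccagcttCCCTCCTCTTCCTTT
RPL7L1 (chr6:42879591-42879630, plus strand): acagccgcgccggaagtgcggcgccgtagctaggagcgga
RPL17 (chr18:49492451-49492490, minus strand): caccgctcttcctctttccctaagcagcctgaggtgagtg
RPS26 (chr12:56041893-56041932, plus strand): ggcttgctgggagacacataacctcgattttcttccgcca
RPLP0 (chr12:120201097-120201136, minus strand): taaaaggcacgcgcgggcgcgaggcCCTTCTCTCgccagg
RPS6 (chr9:19380222-19380261, minus strand): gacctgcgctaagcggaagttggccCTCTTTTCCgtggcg

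At the RefSeq start, the parents RPL22, RPS27, RPL26, RPL36A and RPL39 each have a TOP-like run. The paralogs RPS27L, RPL26L1, RPL36AL and RPL7L1 do not. RPL22L1 is the exception, with a run of 6 letters beside 7 in RPL22. RPL17 and RPS26 have no TOP-like run at the RefSeq start. This classing depends on the exact annotated first base. In RPL36AL that base lies inside a longer stretch of C and T letters, and in RPL17 such a stretch ends shortly before it. Among other letters searched on both strands of the promoter window, 250 bases before to 50 after the start, the ETS-type CCGGAAG stood in 35.8% of the 67 members against 16.5% of protein-coding genes. GGGCGG stood in 58.2% against 64.3%, CACGTG in 7.46% against 10.9%, and AAGATGGC in 10.4% against 4.66%. CACGTG is its own reverse complement, and none of these words contains another. A match describes letters in this window only.

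Ribosomal protein mRNAs took up a smaller share of the unscaled counts in dG than in PBS in both lines, and more so in U937. The 83 genes held 2.02% and 1.97% of all counts in the U937 dG libraries, against 2.55% and 2.61% in U937 in PBS. They held 2.39% and 2.33% in the KG1A dG libraries, against 2.46% and 2.55% in KG1A in PBS. The dG and PBS libraries did not overlap in either line. These shares are of unscaled totals, unlike the CPM values. The TMM scaling factors were 0.9776 and 0.9775 in KG1A in dG against 1.019 and 1.026 in PBS. In U937 they were 0.9703 and 0.9798 in dG against 1.024 and 1.029 in PBS. Divided by these factors, the KG1A shares in dG and PBS overlapped, while those in U937 did not. The group means were 1.99 ± 0.0346% in dG and 2.58 ± 0.0403% in PBS in U937, and 2.36 ± 0.0431% and 2.50 ± 0.0679% in KG1A (SD, n = 2 each). With 2 libraries a group, no test was made of the shares. In bulk RNA, fewer cells of a type and less RNA per cell cannot be told apart. The mitochondrially encoded genes took 8.18% and 7.93% of counts in U937 in dG against 9.77% and 9.83% in PBS, and the part of this in the ribosomal protein shares was not tested beyond leaving these genes out of the total.

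**Figure D1:**
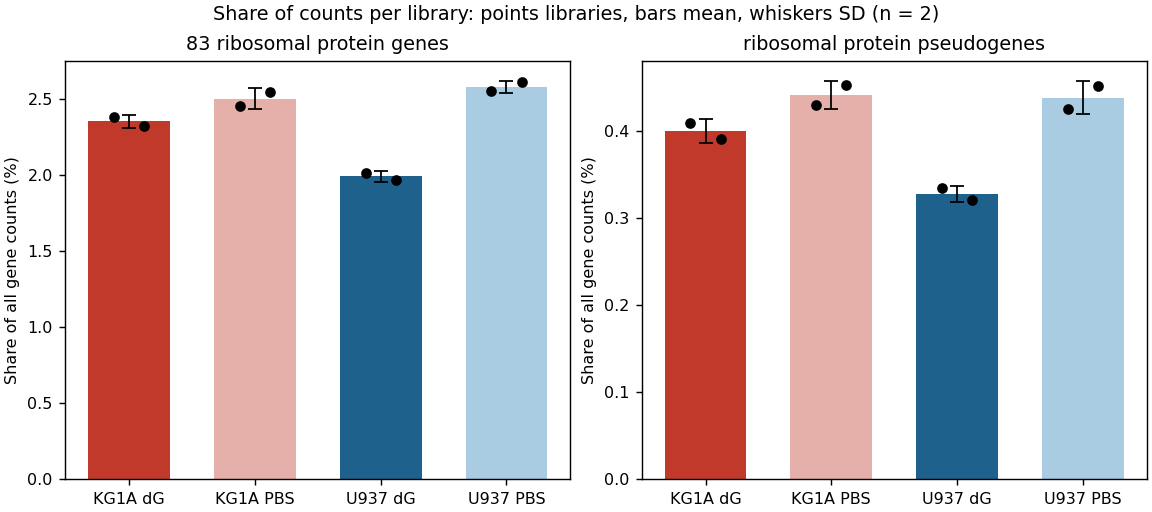
Share of all gene counts held by the 83 ribosomal protein genes (left) and by ribosomal protein pseudogenes (right), in percent, with 1 point per library, bars at the group mean and whiskers of 1 SD (n = 2). The U937 dG libraries sit lowest in both panels, at 2.02% and 1.97% for the 83 genes.

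In U937, most ribosomal protein mRNAs were lower in dG than in PBS, and a small number of genes rose. The log2 fold changes of the 83 genes ran from -1.41 to 1.51, with quartiles of -0.42 and -0.06. Of the 83, 59 fell and 9 rose, where 31.5% of all genes tested fell and 32.4% rose, 64% in either direction. The median log2 fold change was -0.28, against 0 over all genes tested. The libraries of dG and PBS did not overlap for 77 members, of which 66 were lower in dG and 11 higher. Over all genes tested, 39.8% were without overlap and lower and 39.2% without overlap and higher, 78.9% in all. Among the large-subunit core genes 32 of 46 fell and 3 rose, and among the small-subunit core genes 25 of 31 fell and 3 rose, with a median of -0.29 in each. The 18 members tied to Diamond-Blackfan anaemia, a red cell disorder caused by loss of 1 copy of a ribosomal protein gene, had 14 lower and 1 higher.

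In KG1A the same treatment gave smaller changes in both directions. There, 37 members fell and 11 rose, where 19.6% of all genes tested fell and 29.6% rose, 49.1% in either direction. The median was -0.06, against 0.04 over all genes tested, and 23 of the 48 calls were changes of under 0.2 on the log2 scale. Libraries did not overlap for 44 members lower in dG and 16 higher, against 29.6% and 40.6% of all genes tested (70.2% in all). Large-subunit core genes had 21 lower and 7 higher of 46, and small-subunit core genes 11 lower and 4 higher of 31. The split depended on how libraries were scaled: with library size alone, 49 members were called lower and 9 higher, while 24.2% of all genes were then lower and 25% higher. Of the Diamond-Blackfan genes, 4 were lower and 1 higher.

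**Figure D2:**
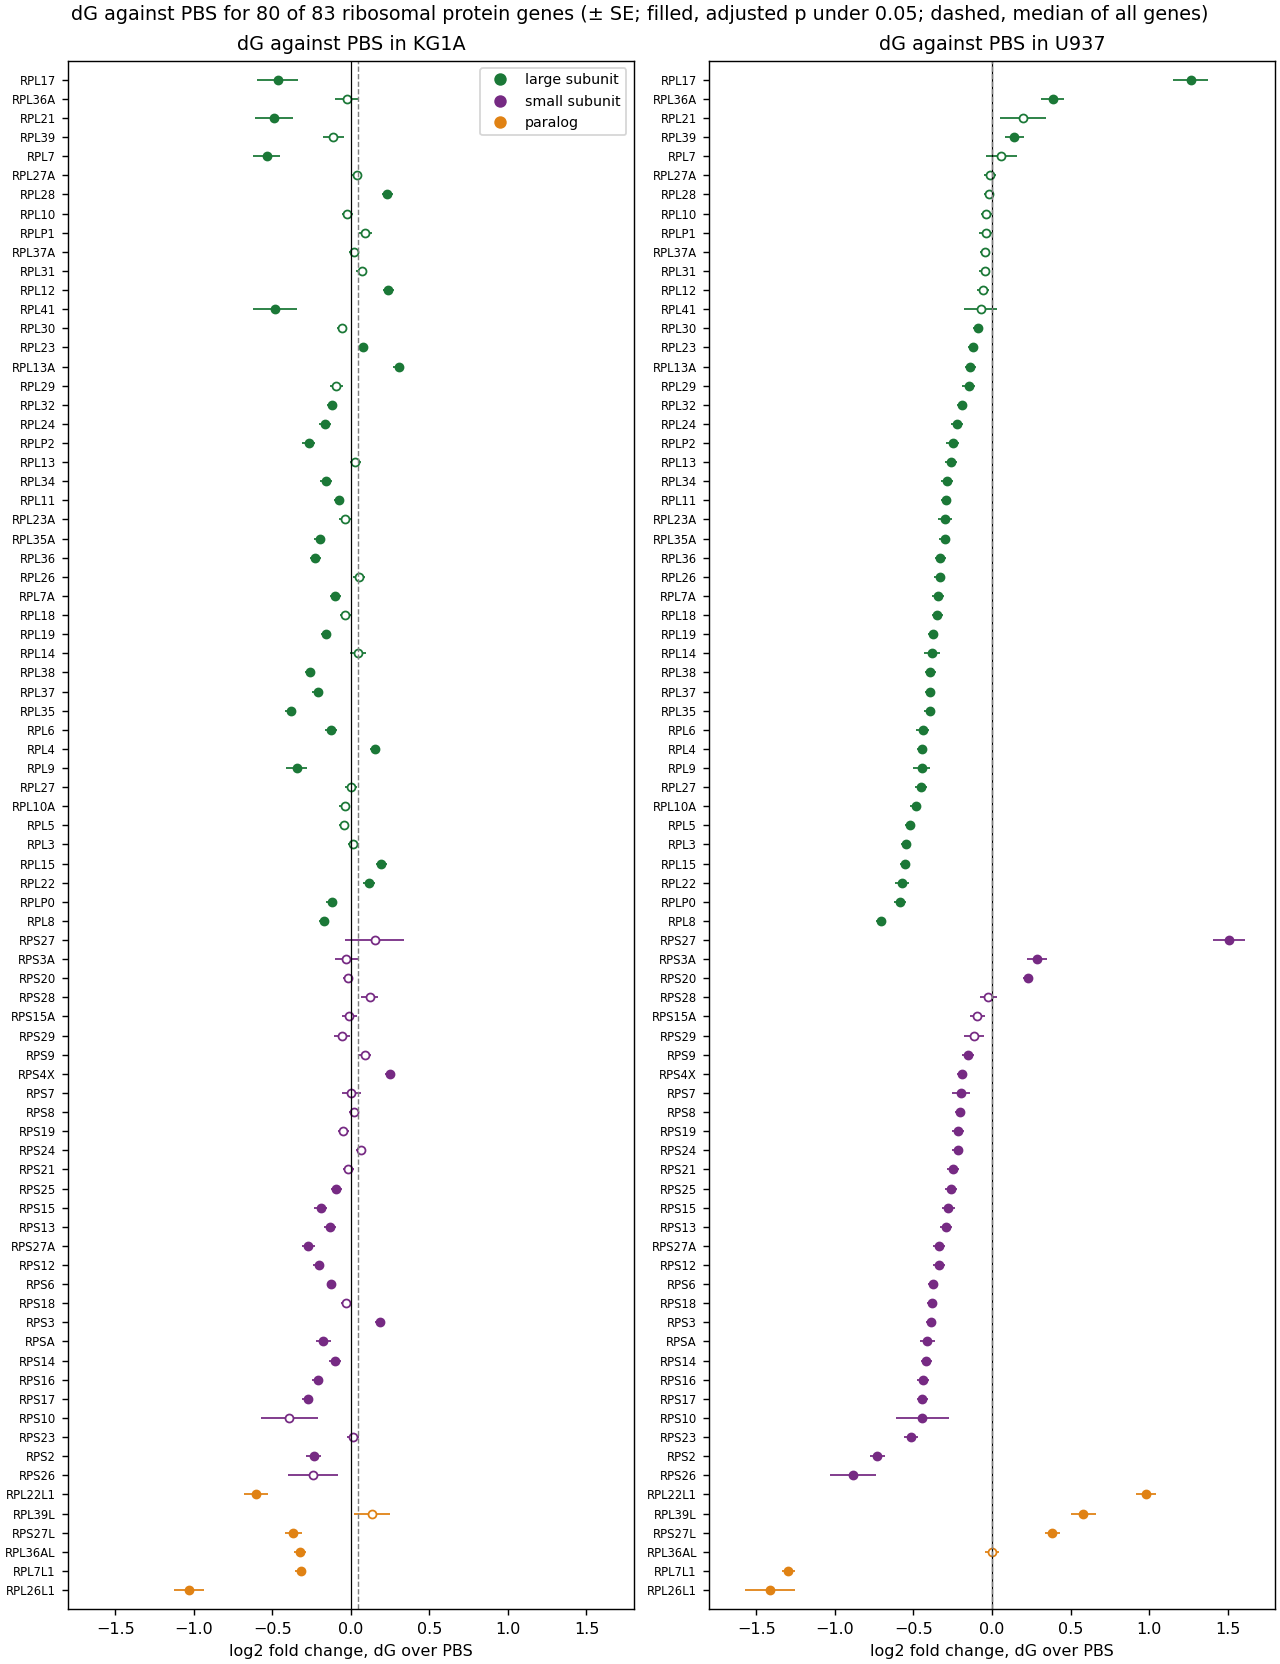
Log2 fold change of dG over PBS with its SE (horizontal axis) for 80 of the 83 genes (rows, ordered by the U937 value within each class), in KG1A (left) and in U937 (right). Filled points passed an adjusted p of 0.05 and the dashed line is the median of all genes tested; most U937 points lie left of 0, with RPS27, RPL17 and RPL22L1 far to the right.

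Among large-subunit core genes, RPL8 and RPLP0 fell most in U937. RPL8, part of the peptidyl transferase region, had 592 and 567 CPM in U937 in dG, against 952 and 939 CPM in PBS (log2 fold change -0.71 ± 0.03, adjusted p = 7.92e-21). In KG1A it had 740 and 698 CPM in dG, against 803 and 819 CPM in PBS (-0.17 ± 0.03, adjusted p = 1.46e-05). The dG libraries lay below the PBS libraries in both lines, and the fall was larger in U937 (difference -0.53 ± 0.05, adjusted p = 1.4e-12).

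RPLP0 is the scaffold of the ribosomal stalk, on which RPLP1 and RPLP2 sit and which recruits elongation factors. RPLP0 had 255 and 237 CPM in U937 in dG, against 365 and 375 CPM in PBS, a log2 fold change of -0.59 ± 0.04 (adjusted p = 2.62e-16). In KG1A the values were 543 and 502 CPM in dG, against 560 and 579 CPM in PBS (-0.12 ± 0.04, adjusted p = 0.00377), a call that was lost without the second PBS or the second dG library (adjusted p = 0.0678 and 0.172). RPLP2 fell in both lines, with a difference between them of 0.02 ± 0.06 (adjusted p = 0.872). It had 141 and 139 CPM in dG against 165 and 169 CPM in PBS in U937 (-0.25 ± 0.04), and in KG1A 168 and 160 CPM in dG against 187 and 208 CPM in PBS (-0.27 ± 0.04). The third stalk protein, RPLP1, passed the test in neither line (-0.04 ± 0.04 in U937, 0.09 ± 0.04 in KG1A), but in KG1A it was 0.17 and called without the second PBS library (adjusted p = 0.00295) and 0.16 without the second dG library (0.00103), and in U937 it was -0.12 and called with library size alone (0.0156). RPSA, a small-subunit protein also known as the laminin receptor, had 96.8 and 97.1 CPM in U937 in dG against 124 and 134 CPM in PBS (-0.41 ± 0.05), and -0.17 ± 0.04 in KG1A (adjusted p = 0.00125), where the call was lost without the second PBS library (adjusted p = 0.131).

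RPL5 and RPL11 bind 5S rRNA and, when ribosome assembly is disturbed, bind and inhibit MDM2. RPL5 had 369 and 356 CPM in U937 in dG, against 506 and 534 CPM in PBS (-0.52 ± 0.03, adjusted p = 1.15e-16), and was not called in KG1A (-0.04 ± 0.03, adjusted p = 0.273). Under 7 alternatives the KG1A value was about -0.11 and called, among them the fits without the first or the second U937 dG library (adjusted p = 0.00481 and 0.00467), library size alone (0.00339) and no filter (0.00372). RPL11 had 770 and 726 CPM in U937 in dG, against 910 and 925 CPM in PBS (-0.29 ± 0.03). In KG1A its value was -0.08 ± 0.03 (adjusted p = 0.0442), which was lost without the second PBS library or either dG library (adjusted p up to 0.268). MDM2 itself was not called in either line (0.01 ± 0.05 in U937, -0.02 ± 0.04 in KG1A). CDKN1A, the cell cycle inhibitor p21, had a mean of 22.8 CPM in U937 in dG against 3.08 CPM in PBS, and 3.62 CPM in KG1A in dG against 0.922 CPM in PBS. MDM2 and CDKN1A belong to a list of 7 genes tied to ribosomal stress. Of these 7, 4 fell and 2 rose in U937, and 2 fell and 2 rose in KG1A. Of all genes tested, 31.5% fell and 32.4% rose in U937, and 19.6% and 29.6% in KG1A. A link between CDKN1A and RPL5 or RPL11 was not tested.

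Small-subunit genes fell in U937 with few exceptions. RPS26, which contacts mRNA at the exit channel, had 3.62 and 4.42 CPM in U937 in dG against 6.90 and 7.97 CPM in PBS (-0.89 ± 0.15, adjusted p = 1.93e-06). It was not called in KG1A (-0.24 ± 0.16). The difference between lines was -0.64 ± 0.22 with an adjusted p of 0.0151, and it was lost under 9 alternatives, among them DESeq2 (adjusted p = 0.228) and the fits without the second KG1A dG (0.179), the second U937 PBS (0.0511) or the first U937 dG library (0.245). RPS2 had 90.5 and 87.8 CPM in U937 in dG against 145 and 151 CPM in PBS (-0.73 ± 0.05), and fell less in KG1A (-0.24 ± 0.05). RPS6, the classic target of the S6 kinases, had 854 and 832 CPM in U937 in dG against 1088 and 1103 CPM in PBS (-0.38 ± 0.03), and in KG1A 894 and 898 CPM against 971 and 982 CPM (-0.12 ± 0.03). RPS27A, made as a fusion with ubiquitin, fell by 0.34 ± 0.04 in U937 and by 0.27 ± 0.04 in KG1A on the log2 scale, a difference of -0.07 ± 0.06 (adjusted p = 0.374) that was called with pseudogene reads added (-0.15, adjusted p = 0.00793). RPS19, the most often mutated gene in Diamond-Blackfan anaemia, fell in U937 (-0.22 ± 0.04) and was not called in KG1A (-0.05 ± 0.04), where it was called without the first KG1A dG library (-0.13, adjusted p = 0.00562) or without either U937 dG library (-0.11, 0.0175 and 0.0165).

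Core genes that rose in U937 were RPS27, RPL17, RPL36A, RPS3A, RPS20 and RPL39, and RPS27 and RPL17 stood far from the rest. RPS27, a zinc-finger protein of the small subunit, had 18.1 and 17.2 CPM in U937 in dG against 6.34 and 6.02 CPM in PBS, a log2 fold change of 1.51 ± 0.10 (2.85-fold, adjusted p = 1.05e-15). In KG1A it averaged 2.39 ± 0.294 CPM in dG against 2.16 ± 0.00873 CPM in PBS (SD, n = 2 each), with no call in edgeR (0.15 ± 0.19, adjusted p = 0.549). Both KG1A dG libraries lay slightly above both PBS libraries in CPM. In the deposited RPKM the second dG library (2.231) lay below both PBS libraries (2.324 and 2.32). RPL17 had 14.6 and 14.2 CPM in U937 in dG against 5.30 and 6.82 CPM in PBS (1.27 ± 0.11, adjusted p = 2.15e-12). In KG1A it moved the other way, with 5.51 and 4.60 CPM in dG against 7.07 and 6.98 CPM in PBS (-0.47 ± 0.13, adjusted p = 0.0031), which was lost without the second dG library (adjusted p = 0.0557). Both genes held few counts for ribosomal proteins. Of the 50-base windows of the RPS27 transcripts, 66.5% occurred exactly in transcripts of other genes. Its counts therefore depend on how shared reads were treated, which is not given in the sources used here. The shares were 44.6% for RPS3A, 39.6% for RPL17, 36.6% for RPL39, 24.5% for RPL36A and 10.4% for RPS20. The median over members was 14.4%. The read-through entry RPL17-C18orf32 overlies RPL17 and had 0 counts, and the same held for RPL36A-HNRNPH2 over RPL36A and RPS10-NUDT3 over RPS10, so the values of these 3 members are uncertain. RPL39 rose by 0.14 ± 0.06 in U937 (adjusted p = 0.0428), which was lost without the first U937 PBS library (adjusted p = 0.607) or without either KG1A PBS library (0.0528 and 0.0511).

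In KG1A, a group of abundant core genes rose slightly. RPL13A, which in human monocytes is also known to leave the ribosome and repress inflammatory mRNAs, had 607 and 577 CPM in KG1A in dG against 469 and 490 CPM in PBS (0.30 ± 0.03, adjusted p = 7.07e-10). RPS4X had 653 and 650 CPM in dG against 542 and 555 CPM in PBS (0.25 ± 0.03, adjusted p = 9.23e-09). The next values were 0.24 ± 0.04 for RPL12, 0.23 ± 0.03 for RPL28, 0.19 ± 0.03 for RPL15 and 0.18 ± 0.03 for RPS3. All 6 had both dG libraries above both PBS libraries. The calls of RPL13A, RPS4X, RPL12, RPL28 and RPS3 held when RPKM with a pseudocount of 1 was tested by limma, while that of RPL15 did not (adjusted p = 0.0818). With no filter on that scale, limma also lost RPL12 (adjusted p = 0.0945), RPL28 (0.137) and RPS3 (0.181). Core genes that fell most in KG1A were RPL7 (13.1 and 12.1 CPM in dG against 18.2 and 18.4 CPM in PBS, -0.54 ± 0.08), RPL21 (-0.49 ± 0.12), RPL41 (-0.48 ± 0.14) and RPL17. RPL41, the smallest ribosomal protein, lost its call with DESeq2 (adjusted p = 0.0505) and with limma on unfiltered log2(RPKM + 1) (0.0579). It also lost it without the second PBS library, where its value was -0.30. RPL7 held 2640 reads in all, while 61 pseudogenes named after it held 7239. With the pseudogene reads added to RPL7, its U937 value turned from 0.06 (not called) to -0.42 (adjusted p = 2.74e-07), and its difference between lines turned from 0.60 to -0.03 (adjusted p = 0.872).

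**Figure D3:**
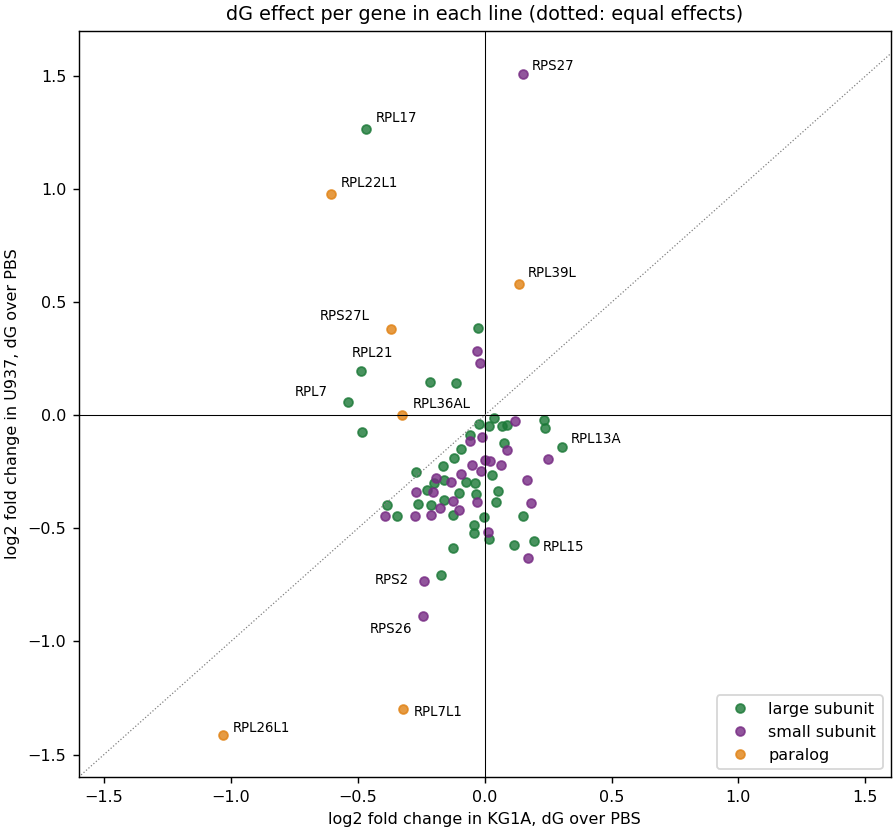
Log2 fold change of dG over PBS in U937 (vertical) against that in KG1A (horizontal), 1 point per gene, coloured by class; the dotted line marks equal effects. Most points lie below the dotted line, and RPL17, RPL22L1 and RPS27L lie in the upper left, lower in KG1A and higher in U937.

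The dG effect differed between the lines for 60 of the 83 genes, 47 with a lower value in U937 and 13 with a higher one, where 26.4% of all genes were called lower and 17.6% higher, 44.1% in all. The median difference was -0.18, against -0.10 over all genes tested. This count moved with the scaling: with DESeq2 size factors in edgeR, 37 members were lower and 14 higher, against 21.3% and 22% of all genes, and without a filter on low counts 28 were lower and 14 higher, against 10.5% and 12.3%. Without the first U937 dG library 30 members were lower and 14 higher, against 17.2% and 20.2% of all genes, and without the second 25 were lower and 16 higher, against 17.1% and 20.4%. In 68 of 83 members the U937 value lay below the KG1A value, as it did in 56.5% of all genes tested. That count was 50 members without the filter (47.9% of all genes), 54 with DESeq2 size factors in edgeR (50%), and 53 and 46 without the first and the second U937 dG library (49.5% and 48.8%). Across the 83 genes, the 2 effects had a Pearson r of 0.10 and a Spearman rho of 0.13, given as a description, beside an r of 0.25 over all genes tested. The median of all genes moved from -0.10 to 0.05 without the filter and with DESeq2, and relative to it the members' median was -0.08, -0.10 and -0.13 in these 3 fits. Without the second U937 dG library the members' median difference was -0.01 against 0.02 over all genes, which left -0.03.

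In 12 genes the 2 lines were called in opposite directions with a called difference, a pattern that 7.44% of all genes tested showed (2.51% higher in U937 and lower in KG1A, 4.93% the reverse). RPL22L1, RPS27L and RPL17 were higher in U937 and lower in KG1A. The other 9, among them RPL22, RPL23, RPL13A, RPS3, RPL4, RPL15 and RPS4X, were lower in U937 and higher in KG1A. RPL15 had 530 and 486 CPM in U937 in dG against 732 and 761 CPM in PBS, and 571 and 569 CPM in KG1A in dG against 498 and 500 CPM in PBS, a difference of -0.75 ± 0.05 (adjusted p = 9.2e-16). RPL4 differed by -0.60 ± 0.05 (adjusted p = 9.36e-14). The KG1A rises of RPL4 and RPL15 were lost on RPKM with limma, and the U937 fall of RPL13A was lost under 7 alternatives, among them DESeq2 (adjusted p = 0.317), DESeq2 size factors in edgeR (0.224) and the fit without the second U937 dG library (-0.04, adjusted p = 0.453). The differences of RPL15, RPL4, RPL22, RPS3, RPL13A and RPS4X between lines kept their call under every alternative run.

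The 6 paralogs moved in several directions, with log2 fold changes from -1.41 to 0.98 in U937 and from -1.03 to 0.14 in KG1A. In KG1A 5 fell and none rose (RPL39L was not called), and in U937 2 fell and 3 rose, where the background was 19.6% lower and 29.6% higher in KG1A and 31.5% and 32.4% in U937. RPL22L1, the paralog of RPL22 whose transcript the RPL22 protein is known to repress in mouse, had 45.9 and 46.2 CPM in U937 in dG against 22.5 and 24.3 CPM in PBS (0.98 ± 0.06, adjusted p = 2.38e-16). In KG1A it had 14.6 and 15.4 CPM in dG against 22.6 and 22.9 CPM in PBS (-0.60 ± 0.07, adjusted p = 1.04e-08). The PBS libraries of the lines were close, and dG moved them apart, with a difference of 1.58 ± 0.10 (adjusted p = 3.28e-16).

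RPL22 itself moved opposite to its paralog in each line. It had 83.5 and 81.3 CPM in U937 in dG against 120 and 126 CPM in PBS (-0.57 ± 0.04, adjusted p = 9.14e-15), and 139 and 137 CPM in KG1A in dG against 126 and 129 CPM in PBS (0.12 ± 0.04, adjusted p = 0.0121). The KG1A call ended under 11 alternatives, with adjusted p up to 0.701. Per length of the deposited exons (RPKM), RPL22L1 stood at 116% and 120% of RPL22 in U937 in dG against 39.6% and 40.7% in PBS, and at 22% and 23.7% in KG1A in dG against 37.8% and 37.4% in PBS. In RPKM, RPL22L1 exceeded RPL22 in both U937 dG libraries and in none of the other 6. In CPM, without division by length, RPL22L1 stayed below RPL22 in U937 in dG (45.9 and 46.2 against 83.5 and 81.3 CPM). The order of the pair thus depends on the deposited exon lengths, 2326 bases for RPL22L1 and 4900 for RPL22.

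RPS27L, the paralog of RPS27, had 79.3 and 79.2 CPM in U937 in dG against 60.6 and 60.9 CPM in PBS (0.38 ± 0.05, adjusted p = 3.93e-09). In KG1A it had 30.3 and 30.0 CPM in dG against 38.6 and 39.1 CPM in PBS (-0.37 ± 0.05, adjusted p = 6.45e-07), and the difference between lines was 0.75 ± 0.07 (adjusted p = 5.01e-11). Both members of this pair rose in U937, RPS27 more, and RPS27L stood at 45.4% and 47.7% of RPS27 in RPKM in dG against 99% and 105% in PBS. In CPM, without division by length, RPS27L stood above RPS27 in U937 in dG (79.3 and 79.2 against 18.1 and 17.2 CPM). The deposited exon lengths are 9127 bases for RPS27L and 946 for RPS27. Counts of RPS27 also depend on shared reads, with 66.5% of its windows shared. RPL39L, best known from male germ cells, had 23.1 and 22.8 CPM in U937 in dG against 14.7 and 16.1 CPM in PBS (0.58 ± 0.08, adjusted p = 5.87e-08), and was not called in KG1A (0.14 ± 0.12).

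RPL26L1 and RPL7L1 fell in both lines. RPL26L1, nearly identical to RPL26 in protein, had 3.28 and 2.14 CPM in U937 in dG against 7.25 and 7.38 CPM in PBS (-1.41 ± 0.16, adjusted p = 8.4e-10), and 10.7 and 10.5 CPM in KG1A in dG against 19.7 and 23.4 CPM in PBS (-1.03 ± 0.10, adjusted p = 1.56e-11). The difference between lines was not called (-0.38 ± 0.19, adjusted p = 0.112), but was without the second KG1A PBS library (-0.52, adjusted p = 0.0282). RPL7L1, a nucleolar relative of RPL7 that takes part in large-subunit assembly, had 75.2 and 75.4 CPM in U937 in dG against 185 and 185 CPM in PBS (-1.30 ± 0.04, adjusted p = 7.16e-26). In KG1A it had 127 and 130 CPM in dG against 157 and 163 CPM in PBS (-0.32 ± 0.04, adjusted p = 3.08e-09), and the difference was -0.98 ± 0.05 (adjusted p = 2.65e-17). RPL36AL fell in KG1A (115 and 112 CPM in dG against 144 and 140 CPM in PBS, -0.32 ± 0.04) and was not called in U937 (77.8 and 77.7 CPM in dG against 79.0 and 76.4 CPM in PBS).

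**Figure D4:**
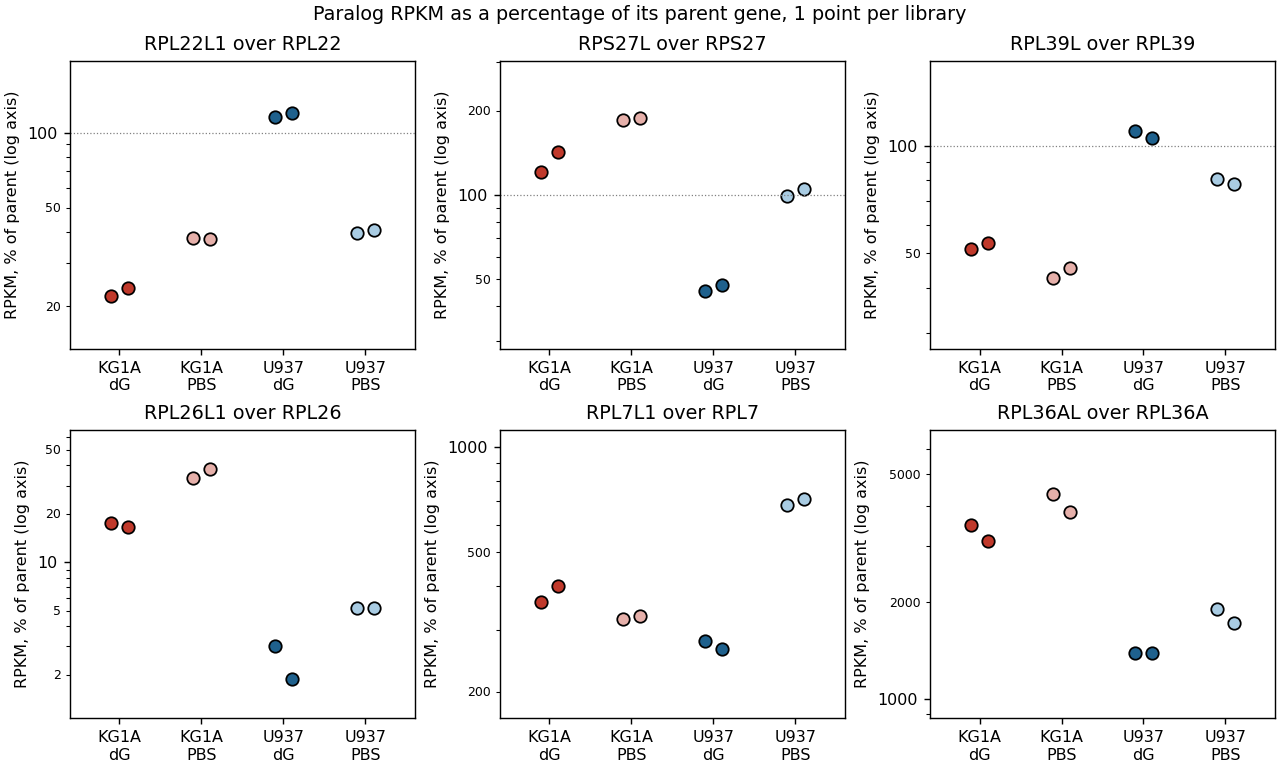
RPKM of each paralog as a percentage of the RPKM of its parent gene (log axis), 1 point per library, for the 4 groups; the dotted line marks equal levels. RPL22L1 exceeds RPL22 only in the U937 dG libraries, at 116% and 120%, among these 8 libraries. RPKM divides by the deposited exon length, and in CPM RPL22L1 stayed below RPL22 in the U937 dG libraries as well.

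Between the lines in PBS, ribosomal protein mRNAs differed gene by gene and not as a block. In U937 against KG1A, 43 of 83 were higher and 31 lower, where 41.4% of all genes were higher and 40.8% lower (82.3% in all), and the median was 0.08 against 0.02 over all genes. These PBS libraries also serve as the baseline of the dG effects, so the 2 sets of values are not independent. RPS27 (6.34 and 6.02 CPM in U937, against 2.17 and 2.16 CPM in KG1A, 1.52 ± 0.15), RPS14, RPL9, RPL39L, RPL26 and RPS4X were the genes furthest above KG1A. RPS14, the small-subunit gene lost in the 5q deletion of myelodysplasia, had 422 and 428 CPM in U937 against 156 and 153 CPM in KG1A (1.46 ± 0.04, adjusted p = 1.05e-29). RPL26 had 297 and 300.2 CPM in U937 against 125 and 130 CPM in KG1A (1.23 ± 0.04). RPL9 had 64.9 and 68.1 CPM in U937 against 26.1 and 26.4 CPM in KG1A (1.34 ± 0.06), and its named pseudogenes held more reads than the gene. With those reads added its log2 fold change was 0.63.

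Furthest below KG1A were RPL26L1 (7.25 and 7.38 CPM in U937 against 19.7 and 23.4 CPM in KG1A, -1.57 ± 0.10), RPS29, RPS25, RPS23, RPL21 and RPS3. RPS29, a small zinc-finger protein, had 65.4 and 76.5 CPM in U937 against 193 and 219 CPM in KG1A (-1.54 ± 0.06, adjusted p = 1.07e-24). RPS25, which internal ribosome entry sites of several viruses require, had 161 and 164 CPM in U937 against 383 and 394 CPM in KG1A (-1.26 ± 0.03). RPS3, which lines the mRNA entry channel, had 654 and 660.2 CPM in U937 against 1211 and 1240 CPM in KG1A (-0.90 ± 0.03). RPL26 and its paralog RPL26L1 thus stood on opposite sides, and RPL26L1 was at 5.19% and 5.22% of RPL26 in RPKM in U937 against 33.4% and 38.2% in KG1A. The libraries of the lines did not overlap for 77 of the 83 genes, 43 higher and 34 lower in U937, where 90.4% of all genes tested did not overlap (45.5% higher, 44.9% lower).

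**Figure D5:**
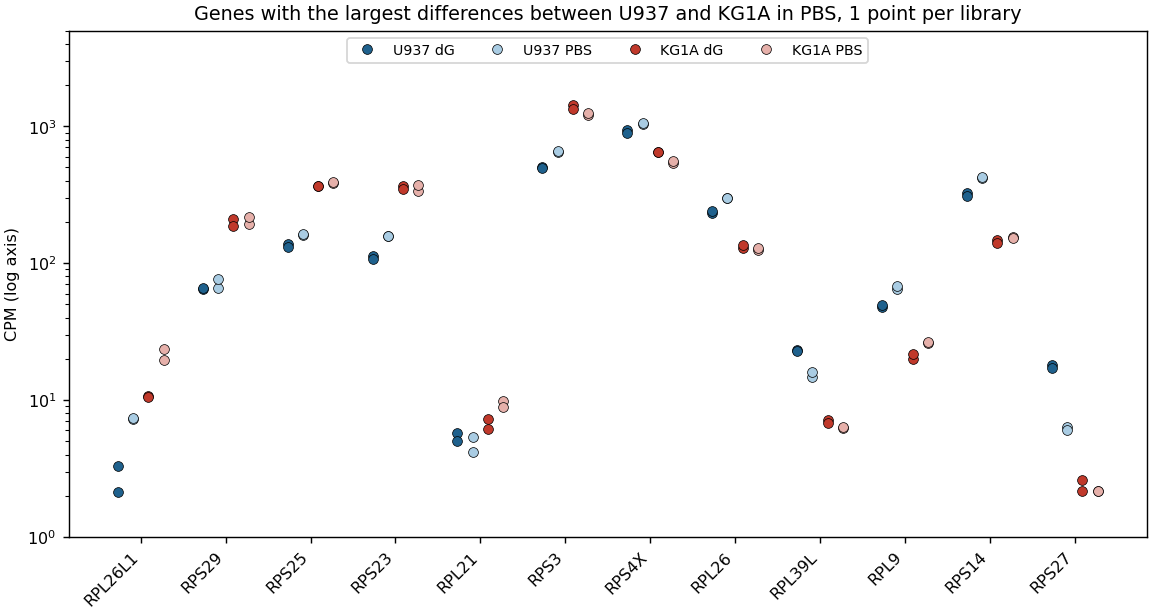
CPM (log axis) of the 12 genes furthest apart between U937 and KG1A in PBS, 1 point per library, ordered from the lowest to the highest log2 fold change. RPS14 lies at 422 and 428 CPM in U937 in PBS against 156 and 153 CPM in KG1A in PBS.

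Levels per exon length spanned a wide range although the proteins are needed in near-equal numbers. RPKM also depends on the deposited exon length and on how shared reads were treated, and their parts in this range were not tested. Among the highest mean RPKM over the 8 libraries were 353 for RPL11, 351 for RPS6 and 348 for RPL8, and the lowest were 1.75 for RPS10, 2.53 for RPS26, 2.92 for RPL21 and 3.32 for RPL17. Across the 83 genes, log2 RPKM of any 2 groups correlated at a Pearson r of 0.914 to 0.995, as a description. The group medians were 71.7 in U937 in dG and 84.0 in U937 in PBS, and 70.5 in KG1A in dG and 67.2 in KG1A in PBS. The median member shared 14.4% of its 50-base windows with transcripts of other genes. In 9 members, among them RPS7, RPL7, RPS27A, RPS28, RPSA, RPS2, RPS15A and RPL9, the pseudogenes named after the gene held more reads than the gene. For the 26 members that shared under 10% of windows, 18 fell and 2 rose in U937 (median -0.25), and 9 fell and 5 rose in KG1A (median -0.01). The 2 that rose in U937 were the paralogs RPL22L1 and RPS27L, so no core gene among the 26 rose there. Of all genes tested, 31.5% fell and 32.4% rose in U937, and 19.6% and 29.6% in KG1A. Pseudogene rows tested in U937 had 80 of 196 lower and 4 higher, with a median of -0.30. Adding pseudogene reads to their member also turned RPS23 in KG1A from 0.01 (not called) to -0.21 (adjusted p = 2.03e-05).

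Members with and without a TOP-like start both had medians below 0. In U937, the 47 members with one had a median of -0.26 (33 lower, 5 higher), and the 20 members with an entry and no such start had a median of -0.41 (15 lower, 2 higher), where 31.5% of all genes were lower and 32.4% higher. In KG1A the medians were -0.08 and -0.12. The second set holds 4 paralogs, and among core genes alone the medians were -0.27 and -0.41 in U937 and -0.06 and -0.05 in KG1A. Genes with a small nucleolar RNA between their start and end on the same strand, 28 members with 59 such RNAs, had a median of -0.23 in U937 against -0.30 in the other 55. These are descriptions with no test, and the TOP-like sets depend on the exact RefSeq first base.

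Other genes of the same machinery moved in part with the ribosomal proteins. FAU and RACK1 fell in U937 (-0.24 and -0.32), and FAU fell in KG1A (-0.09). Of 24 tested elongation factors and other TOP mRNAs, 16 fell and 3 rose in U937 and 9 fell and 10 rose in KG1A, where 31.5% of all genes fell and 32.4% rose in U937 and 19.6% and 29.6% in KG1A. EEF2, which drives ribosome translocation, averaged 2501 CPM in U937 in dG against 3503 CPM in PBS (-0.49 ± 0.03), and 3390 CPM in KG1A in dG against 2909 CPM in PBS (0.22 ± 0.03). TPT1 rose in both (0.31 ± 0.03 in U937, 0.88 ± 0.03 in KG1A). Of 22 tested regulators of TOP translation, 7 fell and 9 rose in U937 and 9 fell and 9 rose in KG1A, shares of 31.8% and 40.9% in U937, near those of all genes, and of 40.9% and 40.9% in KG1A, and MTOR was called in neither line. EIF4EBP1, the mTORC1 target that binds eIF4E and keeps eIF4G from it, fell in U937 (-0.55 ± 0.05) and rose in KG1A (0.35 ± 0.04).

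Genes that escort new ribosomal proteins or finish the subunits fell in both lines. Of 20 such genes, 17 fell and 2 rose in U937 with a median of -0.90, and 16 fell and none rose in KG1A with a median of -0.39, where 31.5% of all genes fell and 32.4% rose in U937 and 19.6% and 29.6% in KG1A. These medians stand beside the ribosomal protein medians of -0.28 and -0.06. GRWD1, whose yeast relative escorts the RPL3 protein, averaged 9.67 CPM in U937 in dG against 37.7 CPM in PBS (-1.96 ± 0.08), and 44.1 CPM in KG1A in dG against 83.7 CPM in PBS (-0.92 ± 0.05). BCCIP, a chaperone of RPL23, fell by 1.17 ± 0.05 in U937 and by 0.76 ± 0.04 in KG1A on the log2 scale. The 78 mitochondrial ribosomal protein genes fell in 63 cases and rose in 6 in U937 (median -0.65), and fell in 65 and rose in none in KG1A (median -0.39). The difference between these lists and the ribosomal proteins was not tested.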

How the data were processed

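Poly(A) RNA-seq libraries of KG1A and U937 cells (2 per line and treatment, grouped by sample titles) were analysed from 2 deposited tables. Per the submitters' processing notes, bcl2fastq 2.18.0.12, TopHat2 and HTSeq 0.11.2 were used with hg38 (GRCh38). Annotation release, strand setting and the treatment of reads matching several genes are not given in the sources used here, so values of near-identical, overlapping or antisense genes are uncertain. The count table deposited by the authors holds whole read counts per gene with exon lengths, another deposited column, given in bases. The RPKM values deposited by the authors equalled counts per kilobase of that length and per TMM-scaled library size. This was checked for values of 50 counts or more, with a largest relative gap of 1.49e-08.

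Counts were tested with edgeR 4.0.16 (R 4.3.3; filterByExpr, TMM, glmQLFTest, two-sided, 1 mean per group over all 8 libraries, 4 residual degrees of freedom, Benjamini-Hochberg over 18314 genes). Alternatives were other size factors, DESeq2 1.42.0, limma 3.58.1 on log2(RPKM + 1 or 0.1), no filter, each library left out, a replicate block, subsets of libraries, and, chosen after seeing the data, a crossed block and pseudogene reads added to members. The fit was tested on simulated data. Named genes were, per contrast, the 6 largest called changes in each direction, the paralogs and parents, 10 listed genes, the 4 highest and lowest RPKM, and genes whose effect differed between lines. Some genes are not reported here. The members and gene lists were chosen with earlier results of these data known. CPM are counts per TMM-scaled library size, and depth limits precision at low counts. Whether replicates are separate cultures is not stated in the labels, and p-values therefore reflect library-to-library spread that may be technical. Same-numbered deviations from the group mean correlated at -0.21 in KG1A and 0.01 in U937 over 8973 genes. The 2 deviations of a group mirror each other, so a negative value for equal numbers is a positive one for crossed numbers. The crossed block in KG1A used that pairing. With 2 libraries a group, these values cannot tell whether the samples were paired.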

Additional observations from a re-analysis of the deposited data

Results flagged for a closer look

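The dG effect differed between U937 and KG1A, by the interaction test in edgeR, for 60 of 83 members, against 44.1% of all genes tested. As U937 effect minus KG1A effect on the log2 scale, the 6 highest values were 1.73 for RPL17, 1.58 for RPL22L1, 1.36 for RPS27, 0.75 for RPS27L, 0.68 for RPL21 and 0.60 for RPL7. Among the lowest were -0.98 for RPL7L1, -0.75 for RPL15, -0.69 for RPL22, -0.64 for RPS26 and -0.60 for RPL4. RPL22L1 and RPS27L kept the call of their difference in each alternative run, while RPS26 and RPL21 did not (RPL21 without the first U937 PBS library, adjusted p = 0.0531), and RPL7 turned when pseudogene reads were added. In 12 members the 2 lines were called in opposite directions with a called difference, against 7.44% of all genes tested. The difference values share their PBS and dG libraries with each line's own effect. With 2 libraries a group, single outlying libraries could not be looked for.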

How the results depend on the processing

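Counts of members called in U937 and between the lines stayed within 1.5 times the reported count in every alternative. In KG1A, 37 lower became 23 with unfiltered log2(RPKM + 1), where the share of all genes called lower went from 19.6% to 4.99%. The 11 higher became 5 with RPKM at either pseudocount and 2 unfiltered. The share of all genes called higher went from 29.6% to 18.5% and 17.9% at pseudocounts 1 and 0.1, and to 5.57% unfiltered. For the difference between lines, 47 lower became 28 without a filter and 30 with DESeq2. The count was 22 and 20 with RPKM at pseudocounts 1 and 0.1, and 15 unfiltered. The share of all genes called lower was 10.5%, 17.2%, 18.7%, 17.1% and 5.33% in these fits, in that order, against 26.4% as reported. Leaving out each library gave 28 to 48 lower and 9 to 13 higher in KG1A, 51 to 60 and 8 to 10 in U937, 25 to 52 and 11 to 16 for the difference, and 30 to 34 and 37 to 44 between lines in PBS. The low end of the difference came without a U937 dG library. The U937 share of unscaled counts changed by -0.589 percentage points, and by -0.694 without mitochondrial genes (KG1A -0.148 and -0.191). With the replicate block the counts were 37 and 10 in KG1A and 59 and 9 in U937. For the difference they were 47 and 13, and between lines 31 and 43. A crossed block in KG1A gave 37 and 11. Whether equal replicate numbers mark paired libraries could not be told. Adding pseudogene reads reversed RPS23 in KG1A (-0.21), RPL7 in U937 (-0.42) and the RPL7 difference (-0.027). Over 42 named genes, 2981 values kept their side of the threshold, 147 lost and 61 gained a call, and 3 reversed; causes were not tested. Depth limits members of few reads, such as RPS10, RPS26 and RPS27 in KG1A.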
